A study of Mus musculus with 2 samples.

Results

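The genes described here carry signals from cytokine receptors into the cell: the JAK kinases and STAT factors, the SOCS and PIAS inhibitors, and the phosphatases, adaptors and Ras regulators that act beside them. They are 35 genes chosen by name, of 22020 gene symbols in the deposited table, and all 35 were found. For each symbol the RefSeq transcript with the highest mean RPKM (reads scaled by transcript length and library size) was used. Their levels were measured by RNA-seq in LSK cells, bone marrow stem and progenitor cells sorted as negative for lineage markers and positive for c-Kit and Sca-1. The cells came from Utx/p53 DKO mice, labelled as double knockouts of the histone demethylase gene Utx (Kdm6a) and the tumour suppressor gene p53 (Trp53), and from p53 KO mice, labelled as knockouts of p53 alone. All mice were C57BL/6 and 8 weeks old, so by the labels p53 knockout is shared and Utx knockout is the difference compared. The submitters' titles call the p53 KO library WT-LSK and the DKO library KO-LSK. How the alleles were deleted, the sex of the mice and whether animals were pooled are not given in the sources used here. There was 1 library per genotype, so no difference has a replicate check, no test was made, and every interval covers counting error only.

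A cytokine that binds its receptor brings together JAK kinases held on the receptor tails, and these phosphorylate the tails and then the STAT factors, which enter the nucleus and switch on genes. SOCS proteins bind the receptor or the kinase and can mark it for degradation. Those that are products of STAT target genes thereby close a feedback loop, which does not hold for every member of the family. PIAS proteins act on STATs in the nucleus, tyrosine phosphatases remove the phosphates, and adaptors such as Grb2 and Shc1 pass part of the signal to Ras. In blood stem and progenitor cells the receptors for interleukin 3 and interferons use this route, and loss of its brakes is a known cause of myeloproliferative disease.

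STAT dimers bind the palindrome TTCNNNGAA, which reads the same on both strands and was therefore searched on 1 strand. RefSeq promoter windows of GRCm38.p6, 250 bases before to 50 bases after a gene's start, were matched for 27 of the 35 genes; Socs2, Socs5, Socs6, Socs7, Pias2, Pias4, Ptpn2 and Gab2 had no entry. The palindrome stood in windows of 2 of the 27 genes (7.41%), Cish and Socs3, and in 8.30% of all 32851 windows. The share of genes was no higher than that of windows, but the 27 genes had 33 windows, so the units differ. The longer form TTCNNNNGAA, which STAT6 also binds, stood in windows of Inpp5d and Shc1 and in 6.95% of all windows. Both feedback genes are shown because their levels differ in how they compare between the genotypes, as given under the SOCS genes. The first is 30 bases around the start of Cish (chr9:107296654-107296683, plus strand) with 2 palindromes, and the second the 250 bases before a start of Socs3 (chr11:117969367-117969616, minus strand) with 1. Both run 5′ to 3′ and capitals mark TTCNNNGAA.
Cish: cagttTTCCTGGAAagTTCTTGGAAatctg
Socs3: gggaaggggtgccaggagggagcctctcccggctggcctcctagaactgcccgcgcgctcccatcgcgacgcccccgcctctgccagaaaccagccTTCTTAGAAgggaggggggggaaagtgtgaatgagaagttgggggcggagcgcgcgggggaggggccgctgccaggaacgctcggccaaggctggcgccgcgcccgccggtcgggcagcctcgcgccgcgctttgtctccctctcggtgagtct
A match is a description of the letters, and binding was not measured.

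The libraries held 19926294 (DKO) and 17088105 (p53 KO) reads by the file's header. Kdm6a was at 1.26 RPKM in the DKO library and 5.32 RPKM in the p53 KO library, and Trp53 at 12.9 and 19.4 RPKM. Reads of both genes remained, 132 of Kdm6a in the DKO library and 456 and 587 of Trp53 in the DKO and p53 KO libraries, and since the deleted exons are not given, whole-transcript RPKM does not check the deletion of Trp53. Of all RPKM, the top 10 genes held 20.0% in the DKO library and 8.17% in the p53 KO library. Markers of other cell types differed too: 11 of 12 granulocyte and monocyte markers were at least 2-fold higher in the DKO library (summed RPKM 70418 against 5818), and 8 of 10 stem and progenitor markers were at least 2-fold lower (392 against 942). At least 2-fold lower were 8 of 8 measured erythroid markers (summed RPKM 241 against 1731), 6 of 7 lymphoid progenitor markers (21.2 against 320.3) and 4 of 6 mast cell and basophil markers, with 1 higher (52.9 against 83.4). Of 7 macrophage markers 6 were at least 2-fold higher (244 against 57.8). Single genes held much of several of these sums, as Ly6a (Sca-1) did among stem and progenitor markers, at 281 of 392 RPKM in the DKO library. They weighed on the sums of the next lists too: 7 of 8 B cell markers were at least 2-fold lower, but Igll1 (563 against 166 RPKM) took the sum to 629 against 508. Of 10 T and NK cell markers 6 were at least 2-fold higher and 3 lower, but Nkg7 (99.6 against 229 RPKM) took the sum to 201 against 291. Of 4 megakaryocyte markers 2 were at least 2-fold lower and 1 higher, Selp (32.2 against 5.75 RPKM), and the sum was 59.4 against 42.2. The 1 measured endothelial or stromal marker was within 2-fold (sum of that list 7.82 against 6.81). Of the sort gate, Kit was at 16.0 against 64.2 RPKM and Ly6a (Sca-1) at 281 against 255 RPKM, and Epor was the 1 marker at 0, in the DKO library. The part of cell makeup in the differences below was not tested, and in bulk RNA fewer cells of a type and less RNA per cell cannot be told apart.

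Most of the signal transducers differed by less than 2-fold between the libraries. Differences are given on log2(RPKM + 1), DKO minus p53 KO, for genes whose mean RPKM over both libraries was 1 or more, which 34 of the 35 were. Socs1 fell outside that filter at a mean of 0.0823 RPKM, and Socs3 was just inside it at 1.14 RPKM. None of the 34 was at least 2-fold higher in the DKO library, where 6.6% of the 11356 genes measured were, and 2 were at least 2-fold lower, Socs6 and Pias3, where 13.5% of all genes were. In either direction the share of all genes was 20.1%. The other 32 lay within 2-fold on that scale. On plain RPKM, without the added 1, Socs3, Cblb, Sh2b3 and Sos1 were also more than 2-fold lower. The share of all genes on plain RPKM is not given here, and with 0.1 added in place of 1 it was 18.7%. The median difference of the 34 was -0.29, beside -0.24 over all genes, and 19 of the 34 lay below the all-gene median. The 95% interval of the RPKM ratio lay below 1 for 23 of the 34, above 1 for 2 and held 1 for 9. The share of all genes by interval is not given here, so these counts do not set the 34 apart. By the log2 difference alone 29 of the 34 lay below 0, as did 7401 of the 11356 genes measured. The median RPKM ratio of all genes was itself below 1, at 0.826. Between the 5th and 95th percentiles the genes spanned -0.97 to 0.24, whereas all genes spanned -1.51 to 1.21. At a 1.5-fold threshold 1 was higher, Cbl (13% of all genes), and 9 were lower, Socs6, Pias3, Socs3, Stat5a, Cblb, Sh2b3, Sos1, Pias1 and Ptpn1 (29.6% of all genes).

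**Figure D1:**
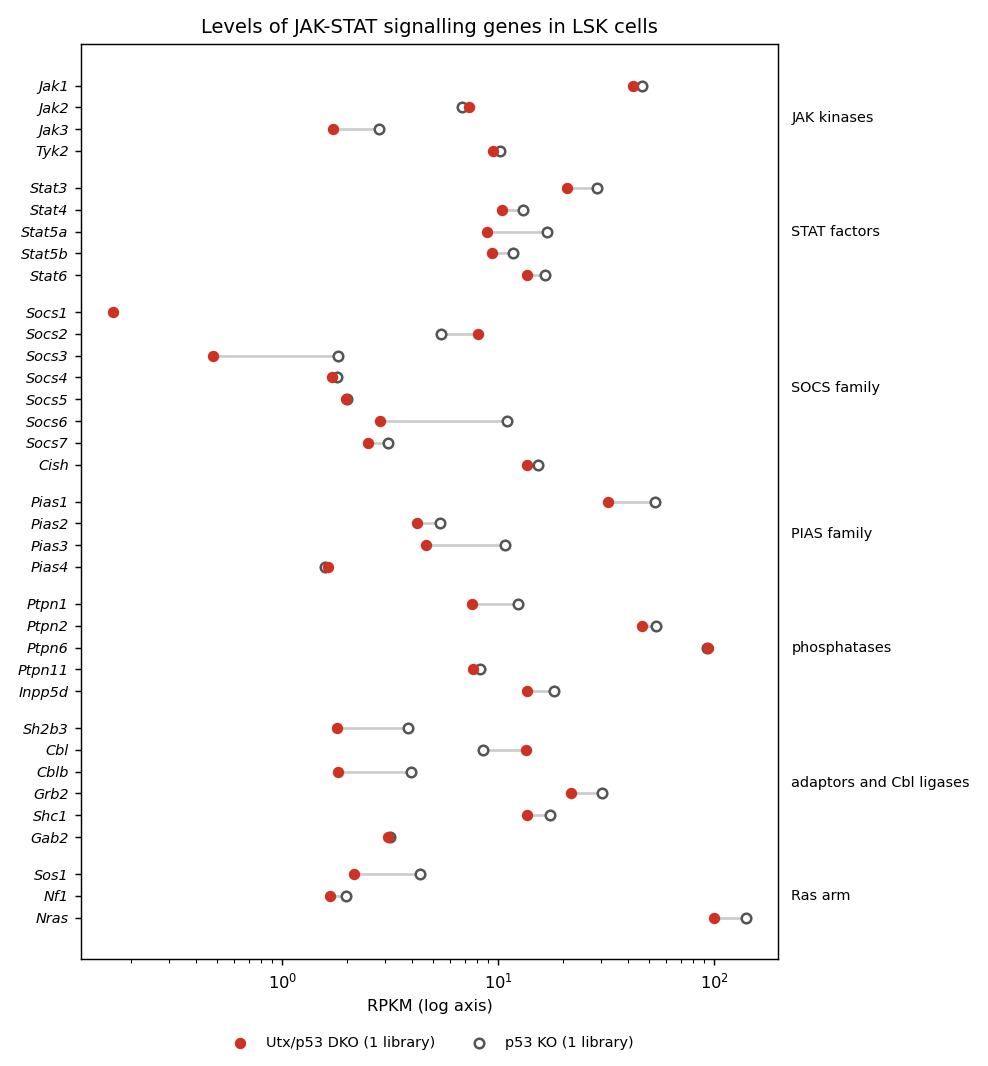
RPKM (log axis) of each of the 35 genes in the Utx/p53 DKO library (filled) and the p53 KO library (open), 1 library each, grouped by role. Most pairs of points lie close together, Socs6 and Socs3 lie far apart, and Socs1, at 0 in the p53 KO library, has its DKO point alone.

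The JAK kinases kept their order of abundance. Jak1, the kinase of interferon, interleukin 6 and common gamma chain receptors, was at 42.1 RPKM in the DKO library and 46.5 RPKM in the p53 KO library. Tyk2, its partner at interferon and interleukin 12 receptors, was at 9.41 against 10.2 RPKM. Jak2, which serves the erythropoietin and interleukin 3 receptors, was at 7.34 against 6.77 RPKM. Jak1 thus held most of the family's RPKM in both, 69.5% in the DKO and 70.1% in the p53 KO library. The RPKM ratios (DKO over p53 KO) of Tyk2, 0.919 (95% interval 0.835 to 1.01), and Jak2, 1.09 (0.971 to 1.21), had intervals that held 1, and that of Jak1 lay just below it at 0.906 (0.868 to 0.945). Jak3, which works with the common gamma chain of lymphoid cytokine receptors, stood apart at 1.72 against 2.81 RPKM, a ratio of 0.613 (0.487 to 0.768). Jak2 was 4.26 times as abundant as Jak3 in the DKO library and 2.41 times in the p53 KO library. That ratio within a library does not depend on how the libraries are scaled, and it was 1.77-fold larger in the DKO library (1.37 to 2.29).

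All 5 STAT genes of the set were lower on the RPKM scale, Stat5a by the most, although with the authors' normalization constants Stat5a alone stayed lower and the other 4 were higher. Stat5a, which acts with Stat5b below the interleukin 3 and GM-CSF receptors, was at 8.85 RPKM in the DKO library and 16.9 RPKM in the p53 KO library (636 and 1039 reads). Its log2 difference was -0.86 and its RPKM ratio 0.525 (0.475 to 0.580). Stat5b was at 9.40 against 11.7 RPKM, a ratio of 0.802 (0.732 to 0.878). Hence Stat5a was at 0.942 times Stat5b in the DKO library and at 1.44 times in the p53 KO library. The ratio of these was 0.655 (0.572 to 0.750). No interval was made for 0.942 alone, so which of the pair was more abundant in the DKO library is not settled. The genes are close copies, so reads may have been split between them. Among measured genes Stat5b, Stat5a and Stat3 follow each other on chromosome 11 in the RefSeq gene order of GRCm38.p6. Stat3, the factor below the interleukin 6 and G-CSF receptors, was the most abundant of the 5, at 20.8 against 28.6 RPKM (ratio 0.729, 0.685 to 0.776). Stat6, activated by interleukin 4, was at 13.6 against 16.4 RPKM, and Stat4, activated by interleukin 12, at 10.4 against 13.1 RPKM. The ratios of Stat6, 0.829, and Stat4, 0.796, lay near the median ratio of all genes, 0.826.

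**Figure D2:**
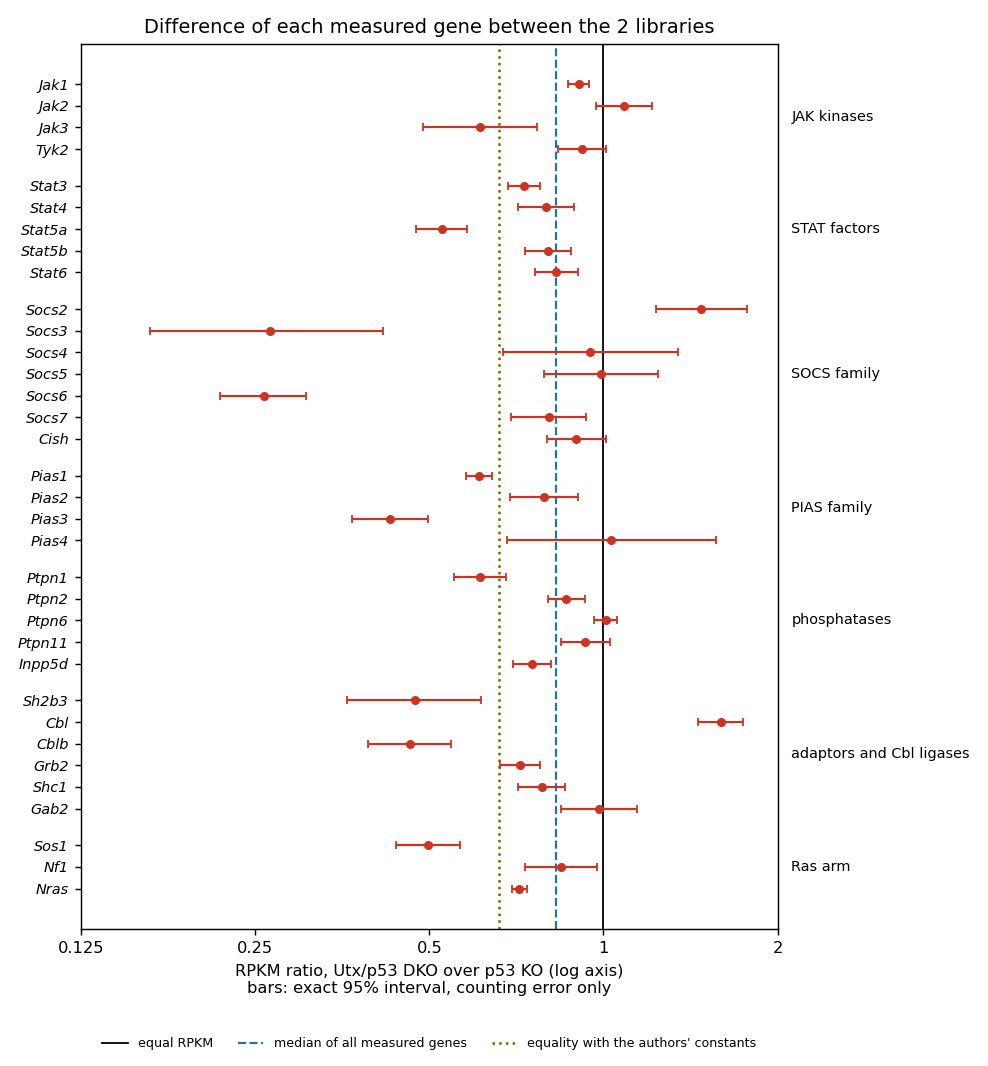
RPKM ratio, Utx/p53 DKO over p53 KO (log axis), of the 34 measured genes, with bars for the exact 95% interval from the reads (counting error only). Lines mark equal RPKM, the median ratio of all measured genes (0.826) and the ratio that the authors' normalization constants treat as equal (0.659). Socs6, Socs3, Pias3, Cblb, Sh2b3, Sos1, Stat5a and Pias1 lie left of all 3 lines with their whole bars, and Socs2 and Cbl right of them.

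Among the roles within the 34 genes, the SOCS family had the widest spread, with an SD of 0.70 among the log2 differences of the 7 measured, against 0.44 over all 34 genes and 0.87 over all genes measured. Socs6, whose product binds the receptors Kit and Flt3 and brings about their degradation, was at 2.83 RPKM in the DKO library and 11.0 RPKM in the p53 KO library (181 and 601 reads). The log2 difference was -1.64 and the level 3.87-fold lower in the DKO library (ratio 0.258, 0.218 to 0.305). Among all measured genes its level ranked at percentile 23.2 in the DKO and 54.2 in the p53 KO library. Kit, the receptor it acts on, was lower as well, as given above. Socs3, which blocks signalling by the interleukin 6 and G-CSF receptors, was scarce, at 0.479 against 1.80 RPKM (26 and 84 reads). Its RPKM ratio was 0.265 (0.164 to 0.416), as low as that of Socs6, but its log2(RPKM + 1) difference was -0.92, because the added 1 damps differences at such levels.

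Socs2 and Cish, both feedback inhibitors induced by STAT5, did not share that pattern. Socs2 was at 8.03 RPKM in the DKO library and 5.45 RPKM in the p53 KO library (332 and 193 reads), a ratio of 1.48 (1.23 to 1.77) and a log2 difference of 0.49. Its rank among all measured genes was percentile 50.7 in the DKO and 33.5 in the p53 KO library. Cish, the most abundant of the family, was at 13.7 against 15.2 RPKM, with an interval that held 1 (0.897, 0.798 to 1.01). Cish and Socs3 carry the palindromes printed above, and their ratios were 0.897 and 0.265. The order within the family differed between the genotypes: Socs2 was at 2.84 times the level of Socs6 in the DKO library and at 0.497 times in the p53 KO library. That change was 5.71-fold (4.45 to 7.34), and the Socs2 share of the family's summed RPKM was 25.7% in the DKO and 13.5% in the p53 KO library. Of the less studied members, Socs5 was at 1.96 against 1.98 RPKM and Socs4 at 1.70 against 1.79 RPKM, with wide intervals that held 1 (0.790 to 1.24 and 0.671 to 1.34). Socs7 was at 2.48 against 3.09 RPKM, a ratio of 0.804 (0.693 to 0.934) near that of all genes. Socs1, an inhibitor of interferon signalling, had 4 reads in the DKO library and 0 in the p53 KO library, near the floor of 3 reads that a count of 0 allows, so no difference was detectable at this depth.

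In the PIAS family, E3 ligases for the small modifier SUMO that restrain STATs, Pias3 and Pias1 were the lower members. Pias3, named for its binding of STAT3, was at 4.62 RPKM in the DKO library and 10.8 RPKM in the p53 KO library (261 and 523 reads), with a log2 difference of -1.07 and a ratio of 0.428 (0.367 to 0.497). Pias1, a regulator of interferon responses and the most abundant member, was at 32.3 against 52.98 RPKM (ratio 0.609, 0.578 to 0.641). The Pias3 level was 0.143 times that of Pias1 in the DKO library and 0.204 times in the p53 KO library, so Pias3 was lower also relative to Pias1 (0.703-fold, 0.598 to 0.824). Pias4 was at 1.63 against 1.58 RPKM with 54 and 45 reads, too few to tell a ratio of 0.680 from one of 1.56. Pias2 was at 4.22 against 5.35 RPKM by its most abundant transcript.

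The transcripts of Pias2 did not behave alike. Its 3 long forms, of 4942, 4968 and 4984 bases, lay between 4.21 and 4.22 RPKM in the DKO library and between 5.29 and 5.35 RPKM in the p53 KO library. The 2 short forms, of 2073 and 2089 bases, were at 1.89 and 1.87 RPKM in the DKO library, against 5.53 and 5.46 RPKM in the p53 KO library. The shortest form had a log2 difference of -1.18 and a ratio of 0.341 (0.259 to 0.446), where the long form used above had a ratio of 0.790 (0.690 to 0.904). Per length, the short form was thus at 0.447 times the long form in the DKO library and at 1.03 times in the p53 KO library. Reads of shared exons count for each transcript, as the equal reads of all 4 Socs2 transcripts show, so these forms are not independent. Jak3 was the other gene whose transcripts differed: a form of 3679 bases was at 0.614 against 0.525 RPKM (45 and 33 reads), while the main form of 3934 bases was the lower one in the DKO library. In the other 13 of the 15 genes with several transcripts, their log2 differences lay within 0.1 of each other.

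**Figure D3:**
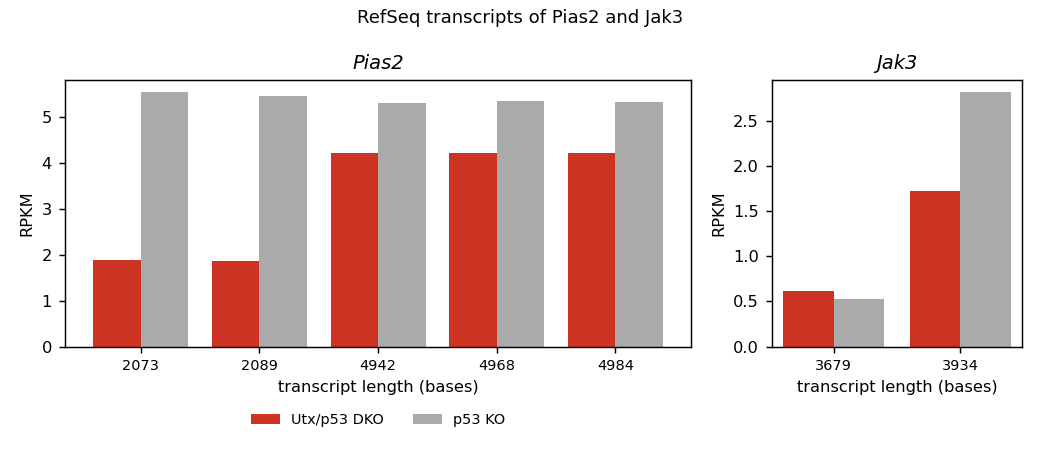
RPKM of each RefSeq transcript of Pias2 (left) and Jak3 (right), by transcript length in bases, in the Utx/p53 DKO library (red) and the p53 KO library (grey). The 2 short Pias2 forms are low in the DKO library (1.89 and 1.87 RPKM), while the 3 long forms are near 4.22 RPKM.

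On the RPKM scale the phosphatases held the steadiest of the abundant genes. Ptpn6 (SHP-1), which dephosphorylates JAKs and cytokine receptors in blood cells, was at 93.5 RPKM in the DKO library and 92.6 RPKM in the p53 KO library. With 4095 and 3481 reads the interval of its ratio was narrow around 1 (0.964 to 1.06). That holds for RPKM only: its log2 difference lay 0.25 above the all-gene median, and the authors' log2 fold change was 0.61. Ptpn11 (SHP-2), which instead promotes Ras signalling and is mutated in juvenile leukaemia, was at 7.64 against 8.21 RPKM (0.844 to 1.03). Ptpn2, a phosphatase of JAK1 and JAK3, was at 46.5 against 53.9 RPKM, and Inpp5d (SHIP1), which removes a phosphate from the lipid product of PI3K, at 13.6 against 18.2 RPKM. Only Ptpn1 among the 5, a phosphatase of JAK2 and TYK2, was at least 1.5-fold lower, at 7.55 against 12.3 RPKM (ratio 0.612, 0.551 to 0.678). The 20 measured genes nearest to Ptpn1 on chromosome 2 had a median log2 difference of -0.90, below its own of -0.64, while those around the other genes had medians between -0.45 and 0.32. Relative to Ptpn1, Ptpn6 was at 12.4 times its level in the DKO library and 7.50 times in the p53 KO library.

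Among the adaptors and ligases the paralogues Cbl and Cblb went opposite ways. Cbl, a ubiquitin ligase that sends activated receptor kinases for degradation, was the most increased of all 34 genes, at 13.5 RPKM in the DKO library and 8.46 RPKM in the p53 KO library (1366 and 735 reads). Its log2 difference was 0.61 and its ratio 1.59 (1.46 to 1.75). Cblb, a related ligase best known as a brake on T cell activation, was at 1.82 against 3.93 RPKM (ratio 0.462, 0.392 to 0.544). Cbl was therefore 7.42 times as abundant as Cblb in the DKO library and 2.15 times in the p53 KO library, a 3.45-fold change (2.86 to 4.17). Sh2b3 (LNK), an adaptor that restrains cytokine signalling through JAK2, was at 1.80 against 3.82 RPKM (89 and 162 reads), with a ratio of 0.471 (0.360 to 0.614). Its log2 difference was -0.78. Grb2, the link from receptors to Ras, was at 21.7 against 30.3 RPKM, Shc1, which recruits Grb2, at 13.6 against 17.4 RPKM, and Gab2, a docking protein for SHP-2 and PI3K, at 3.09 against 3.15 RPKM. The interval of Gab2 held 1 (0.844 to 1.14).

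Of the Ras arm, Sos1 differed most. Sos1, the exchange factor that loads Ras with GTP, was at 2.16 RPKM in the DKO library and 4.34 RPKM in the p53 KO library (384 and 662 reads; ratio 0.497, 0.438 to 0.565). Nras, a Ras protein often mutated in myeloid leukaemia, was the most abundant of all 35 genes, at 100.2 against 140.2 RPKM (0.715, 0.693 to 0.737). Nf1, the brake that returns Ras to its inactive state, was at 1.66 against 1.97 RPKM (0.845, 0.733 to 0.974). The ratio of Nf1 lay close to that of all genes.

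The receptors upstream spread far more widely than the transducers. Of 35 chains of JAK-coupled cytokine receptors 26 were measured, of which 5 lay at least 2-fold above, 7 at least 2-fold below and 14 within 2-fold, beside 6.6% above and 13.5% below among all genes. Their SD of log2 differences was 1.24, against 0.87 over all genes. The median of the chains was -0.32, but 0.27 with a filter at 5 RPKM and 0.18 with the authors' constants. The all-gene medians were -0.24, -0.18 and 0.28, in the same order. With the filter at 5 RPKM 5 chains lay above and 5 below, beside 6.98% above and 11.0% below among all genes. The authors' constants also turned the counts to 8 above and 3 below, beside 16.5% above and 6.27% below among all genes. Ifngr1, the ligand-binding chain of the interferon gamma receptor, was at 404 RPKM in the DKO library and 85.9 RPKM in the p53 KO library (log2 difference 2.22). Csf2rb, the beta chain shared by the interleukin 3, interleukin 5 and GM-CSF receptors, was at 107 against 24.7 RPKM, with a close copy, Csf2rb2, that makes it uncertain. Il7r, the interleukin 7 receptor of lymphoid progenitors, was at 4.35 against 20.8 RPKM. Il7r is also a marker of lymphoid progenitors, whose markers were lower in the DKO library as given above.

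Genes known to respond to STAT5 and STAT3 likewise went both ways. Of 21 measured, 3 lay at least 2-fold above and 7 at least 2-fold below, with a median of -0.20, beside 6.6% above and 13.5% below among all genes. With the authors' constants 4 lay above and 2 below, beside 16.5% above and 6.27% below among all genes. The median was then 0.22, beside 0.28 over all genes. With a filter at 5 RPKM 2 lay above and 7 below, beside 6.98% above and 11.0% below among all genes. The median was then -0.76, beside -0.18 over all genes. Lrg1, a secreted glycoprotein of granulocytes, was at 11.9 RPKM in the DKO library and 0.692 RPKM in the p53 KO library. Id1, an inhibitor of basic helix-loop-helix factors, was at 5.51 against 0.835 RPKM. Lrg1 and Id1 were below 1 RPKM in the p53 KO library, so they passed the filter only through the DKO library. Lower were Myc, the growth regulator, at 22.7 against 108 RPKM, and Bcl2l1, the survival gene for BCL-XL, at 11.3 against 36.6 RPKM. These genes answer to many other signals, and STAT activity was not measured.

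The protein partners of the inhibitors lay within 2-fold on the log2(RPKM + 1) scale. All 9 genes listed as partners of the SOCS ubiquitin ligases were within 2-fold, where 20.1% of all genes were past it. However, Tceb2 passed 2-fold with centring (1.21), upper-quartile scaling (1.13) and the authors' constants (1.56), and Nedd8 with the last (1.18). Tceb2 (elongin B) was at 54.2 RPKM in the DKO library and 27.2 RPKM in the p53 KO library, Nedd8 at 207 against 138, Cul5 at 9.60 against 14.4 and Tceb1 (elongin C) at 62.8 against 87.4 RPKM. The 2 elongins, which bind the SOCS box as a pair, had RPKM ratios of 1.99 for Tceb2 and 0.719 for Tceb1, of which Tceb1 turned to a small increase with the authors' constants. All 12 SUMO pathway genes were within 2-fold too. With 0.1 added in place of 1, however, 1 was lower, Senp6 (-1.02), and with equal totals 2 were. The shares of all genes lower were then 18.7% and 23.9%. Among the 12, Senp6, which cleaves SUMO chains, was at 5.03 against 10.3 RPKM, Sumo3 at 69.6 against 119 RPKM and Sae1, part of the activating enzyme, at 121 against 181 RPKM.

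The other lists of the pathway held more genes at least 2-fold lower than higher, as did all genes (13.5% lower and 6.6% higher). That imbalance depended on the scaling, and with the authors' constants 16.5% of all genes were higher and 6.27% lower. With these constants 0 further phosphatases were higher and 0 lower, and 2 adaptors and ligases were higher and 1 lower. Of the Ras and MAPK genes 5 were then higher and 0 lower, and of the PI3K and AKT genes 1 was higher and 0 lower. In the main analysis 0 of 11 further phosphatases were higher and 2 lower, Ptprj and Inpp4b. The receptor phosphatase Ptprj was at 2.87 RPKM in the DKO library and 8.60 RPKM in the p53 KO library. The lipid phosphatase Inpp4b was at 0.755 against 2.77 RPKM. Ptpre (31.5 against 44.6 RPKM) and Ptpn12 (9.88 against 13.0 RPKM) were within 2-fold. Among 16 further adaptors and ligases 1 was higher, Dok3, at 32.9 against 12.0 RPKM, and 4 were lower, including its relative Dok2, at 9.73 against 46.7 RPKM, the ligase Nedd4, at 16.4 against 48.7 RPKM, and Grap, a relative of Grb2, at 3.61 against 9.26 RPKM. Dok2 and Dok3 are both adaptors that restrain Ras signalling, and they went opposite ways. Among 25 further Ras and MAPK genes 1 was higher, the kinase ERK1 (Mapk3), at 38.0 against 14.8 RPKM, and 2 were lower, Rras2, at 1.83 against 6.51 RPKM, and the feedback inhibitor Spry1, at 0.363 against 1.86 RPKM. Rasal3, a Ras inhibitor of blood cells, was at 4.49 against 9.41 RPKM. Among 18 PI3K and AKT genes 0 were higher and 3 lower: Rictor, a part of mTOR complex 2, at 1.64 against 5.00 RPKM, the factor Foxo1, at 2.85 against 7.34 RPKM, and Pik3r5, a regulatory subunit, at 0.541 against 2.33 RPKM. Pik3r1, the main regulatory subunit, was at 20.9 against 39.9 RPKM. Inpp4b, Spry1 and Pik3r5 were below 1 RPKM in the DKO library, so they passed the filter only through the p53 KO library. With a filter at 5 RPKM 1 further phosphatase and 4 adaptors and ligases were lower. Under that filter 0 Ras and MAPK genes and 1 PI3K and AKT gene were lower, beside 11.0% of all genes.

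**Figure D4:**
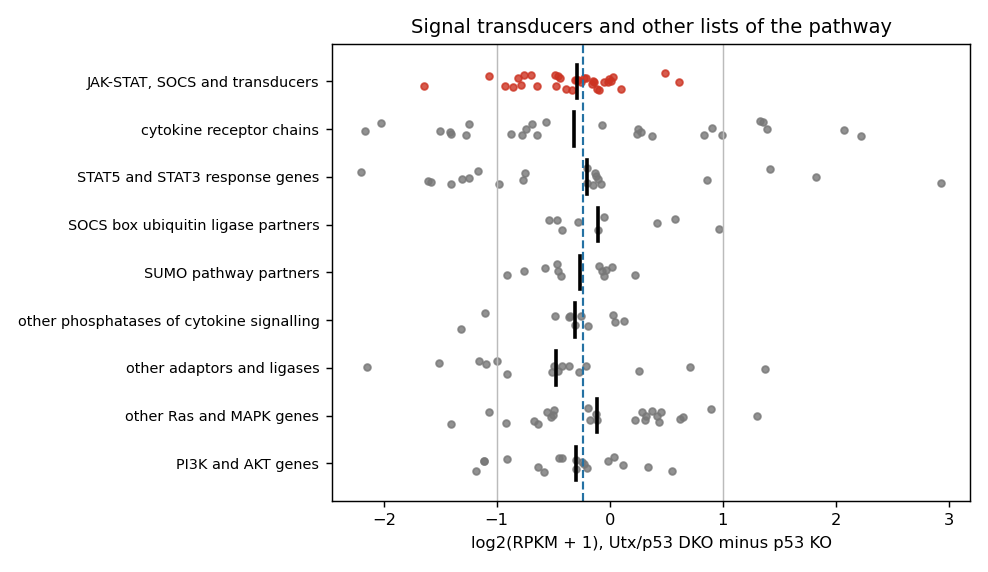
Difference of log2(RPKM + 1), Utx/p53 DKO minus p53 KO, for every measured gene of each list (1 point a gene, black bars for medians, dashed line for the all-gene median of -0.24, grey lines at 2-fold). The transducers (red) span -1.64 to 0.61, and the receptor chains reach 2.22 and spread more widely on both sides.

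The direction of small differences depended on the scaling. In the authors' deposited table, whose log2 fold change applies normalization constants of 1 to the DKO and 1.30144 to the p53 KO library, values lie 0.602 higher on the log2 scale than RPKM alone gives. A log2 fold change of at least 1 in the authors' deposited table was given for 2 of the 34 genes, Cbl (1.27) and Socs2 (1.16), where 19.6% of all genes did, and one of at most -1 for another 2, Socs6 (-1.35) and Socs3 (-1.27), where 8.85% did. The authors' GFOLD value, a cautious log2 fold change, was above 0 in 21 of the 34 in the authors' deposited table (54.5% of all genes), below 0 in 8 (22.9% of all genes) and 0 in 5. The log2 fold change in the authors' deposited table was -0.62 for Pias3 and -0.33 for Stat5a. That of Jak1, Stat3, Ptpn6 and Nras was above 0 (0.46, 0.15, 0.61 and 0.12). Socs6 was at least 2-fold lower under all 13 settings used here, including the main one.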

How the data were processed

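RNA-seq of 2 LSK libraries, 1 Utx/p53 DKO and 1 p53 KO, was compared; groups follow the labelled genotype. Total RNA was reverse transcribed with a SMART kit and amplified by PCR, per the labels' protocols, and no molecular identifiers are mentioned. Per the submitters' processing notes, bcl2fastq 1.8.4 and TopHat2 2.1.0 were used with build mm9. The authors deposited RPKM values, scaled by transcript length and read total; per the file headers, gfold 1.1.4 wrote them. A log2 fold change, the GFOLD value (also log2) and a q-value named E-FDR were deposited beside them, and the q-value was 1 throughout. The RPKM columns are named only by order, and were given to the libraries in the order of the file's header. No source used here states whether counting used strand, so overlapping antisense reads cannot be told apart.

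Values were compared as log2(RPKM + 1), which understates changes of low genes, for genes averaging 1 RPKM or more, and a 2-fold size rule. Whole reads behind each RPKM pair were recovered by finding a transcript length that makes both whole and gives the authors' log2 fold change; 96.9% of 24644 transcripts with reads had exactly 1 solution. Where there were several (Nras and Ptpn2 here) the smallest was used, which gives the widest interval. The 32 other measured genes had a median of 603 (DKO) and 631.5 (p53 KO) reads. Intervals of ratios are exact 95% (Clopper-Pearson), and those of ratios of 2 genes between libraries are exact conditional intervals (scipy 1.17.1). The recovery was tested on simulated data. Genes named were all 35, Kdm6a, Trp53 and the up to 4 of each other pathway list with the largest absolute difference, of which some are not reported here; the sort-gate genes, Epor, Igll1, Nkg7, Selp and single transcripts were named after their values were seen. The genes and lists were chosen with earlier results of these data known. RefSeq order and promoters are of GRCm38.p6, not mm9.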

Additional observations from a re-analysis of the deposited data

How the results depend on the processing

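No paired analysis was possible because there was 1 library per genotype, and for the same reason no library could be left out. The count of genes at least 2-fold lower was 2 in the main analysis (13.5% of all genes). It was 5 with a pseudocount of 0.1 (18.7% of all genes), with Cblb, Sh2b3 and Socs3 added. It was 8 with equal totals (23.9% of all genes) and 9 with a 1.5-fold rule (29.6%). It was 1 (Socs6) with a pseudocount of 5 (4.19%), centring on the median (8.76%), upper-quartile scaling (11.0%), the authors' constants (6.27%) or a 3-fold rule (4.34%). The count higher was 0 in the main analysis (6.60% of all genes). It was 2 (Cbl and Socs2) with the authors' constants (16.5% of all genes) and 1 with a 1.5-fold rule (13.0%). The median difference of -0.29 became -0.0491 with centring, -0.613 with equal totals and 0.24 with the authors' constants; the all-gene median itself shifted by 0.24, -0.31 and 0.52 under these, and by 0.13 under upper-quartile scaling. Over all genes 32.9% of those past 2-fold were higher in the main analysis, 52.4% with centring, 43.1% with upper quartiles, 15.5% with equal totals, 72.5% with the authors' constants and 47.2% with a pseudocount of 5. Omitting the filter, a filter at 5 RPKM, summed transcripts and the longest transcript kept both counts. Over the settings the difference of Socs6 ranged from -1.92 to -1.03, of Pias3 from -1.37 to -0.56, of Cbl from 0.27 to 1.18 and of Socs2 from 0.16 to 1.03. Depth limited Socs1, Pias4, Socs4 and Socs3, which had fewer than 100 reads in each library.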
